A study of Mus musculus with 3 samples.

Results

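Cells chosen by a rule for sebaceous gland cells numbered 80 in the CON library, 56 in UV and 7 in Rux, together 143 of 33511 kept cells, and 105 of them (66, 38 and 1) also had high Scd1, a sebocyte gene outside the rule. A cell was kept when 300 or more genes were detected in it and mitochondrial genes took no more than 10% of its UMIs, the molecular tags that count captured transcripts. A member carried at least 1 UMI of at least 3 of Cidea, Awat2, Dgat2l6, Soat1 and Mgst1, with Awat2 or Dgat2l6 among them, and no UMI of Ptprc or Pdgfra. The members were thus chosen on measured values, and the values of these 5 genes are given as a description. All mice were C57BL/6J, labelled female and, per the study's methods, aged 8 weeks when obtained, before the 12 weeks of irradiation. CON skin received no irradiation, UV skin was irradiated over 12 weeks, on alternate days, with UVB (290 to 315 nm, at 3.5 mW/cm2) and UVA (315 to 400 nm, at 0.60 mW/cm2), and Rux skin received the same UV followed each time by 1.5% ruxolitinib, an inhibitor of the kinases JAK1 and JAK2, in an ointment. Per the study's description of the groups, CON and UV skin received the vehicle. Full-thickness dorsal skin was taken 24 h after the last exposure and profiled by droplet-based sequencing of transcript 3′ ends, in 1 library per group from a number of mice that is not given in the sources used here.

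The deposited matrices held 165337289 UMIs in 13170 cells of CON, 133972374 UMIs in 12411 cells of UV and 131570327 UMIs in 11287 cells of Rux. The filters left 12039, 11331 and 10141 cells with a median of 7686, 7753 and 9611 UMIs. Cells of 1 library are not replicates, so no difference between groups has a replicate check, and no test is given. Intervals are exact 95% intervals that cover counting error only. The libraries shared 50 (CON and UV), 28 (CON and Rux) and 40 (UV and Rux) cell barcodes, none of them among the members. The labels say female, whereas the Y-linked gene Ddx3y had 110, 116 and 122 CPM over the kept cells of CON, UV and Rux and Xist, which is transcribed from the inactive X, had 0.116, 0.106 and 0.101 CPM. CPM here are UMIs per 1000000 UMIs of the cells named.

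The sebaceous gland is an appendage of the hair follicle. Its cells, the sebocytes, arise from dividing cells at the edge of the gland, fill with lipid droplets while they move towards the centre, and then disintegrate whole to release sebum, which is called holocrine secretion. Sebum of mice is rich in wax esters and sterol esters, so sebocytes make fatty acids and sterols in large amounts, elongate and desaturate the fatty acids and join them to alcohols. The nuclear receptor PPARγ, androgens and melanocortin signalling through Mc5r are known to drive this programme.

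Members made up 0.665% (0.527% to 0.826%) of kept cells in CON, 0.494% (0.374% to 0.641%) in UV and 0.0690% (0.0278% to 0.142%) in Rux. The intervals of CON and UV overlapped, and that of Rux lay below both. Of members and other epithelial cells together, the latter taken as cells with Krt5 and Krt14 and without Awat2, Dgat2l6, Ptprc and Pdgfra, the members were 1.84% (1.46% to 2.28%) in CON, 3.14% (2.38% to 4.05%) in UV and 0.489% (0.197% to 1.00%) in Rux, so that CON and UV changed places with the denominator. Other epithelial cells themselves numbered 4273, 1730 and 1425.

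The members were deeply sequenced cells, with a median of 41151 UMIs in CON, 40462 in UV and 45251 in Rux. A rule that requires a UMI of Awat2 or Dgat2l6, both low genes, finds deep cells more readily. When every cell with enough reads was thinned to 2000 UMIs, the rule found 11 of 10615 cells in CON, 10 of 10115 in UV and 1 of 9279 in Rux. In the thinned members of CON, Awat2 was detected in 12.5% and Dgat2l6 in 1.25%. Cidea, Soat1 and Mgst1 were still detected in 77.5%, 70% and 85%. Just inside the threshold, exactly 3 of the 5 genes were detected in 16 members of CON, 16 of UV and 6 of Rux. Just outside it, 56, 67 and 42 cells carried Awat2 or Dgat2l6 with exactly 2 of the 5 genes. A further 25, 19 and 14 cells met the gene condition and were left out for a UMI of Ptprc or Pdgfra.

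The name of the cells was checked against Scd1, a sebocyte marker that the rule did not use and that encodes a stearoyl-CoA desaturase. Scd1 divided the members at a gap. In 66 members of CON, 38 of UV and 1 of Rux it reached at least 4.22 UMIs per 10000, in the remaining 14, 18 and 6 it stayed at or below 1.46 per 10000, and no member lay between these values. The former are called Scd1-high members below and the latter Scd1-low members, a split at 3 per 10000 that was made after the values were seen. Some cells just above the gap had little of other sebocyte genes. CON cells at 4.22, 4.51 and 8.96 per 10000 had 0 to 4 UMIs each of Cidea and Soat1. A UV cell at 6.98 per 10000 had 9 and 3, with 124 of Krt5 among 101724 UMIs. They are counted as Scd1-high. Scd1-high members were 0.548% (0.424% to 0.697%) of kept cells in CON, 0.335% (0.237% to 0.460%) in UV and 0.00986% (0.00025% to 0.0549%) in Rux.

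**Figure D1:**
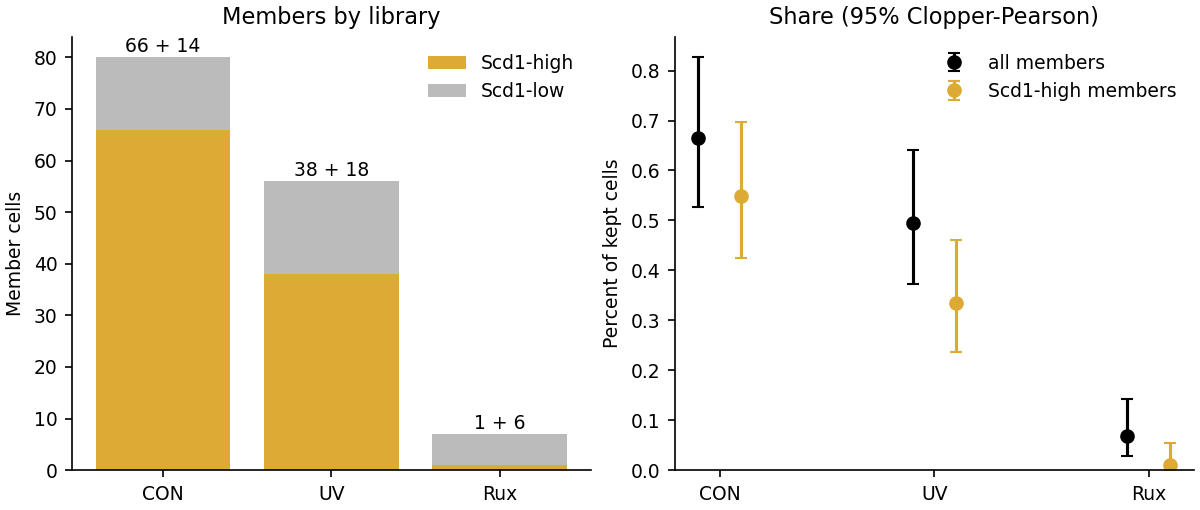
Left, number of member cells per library, stacked as Scd1-high (gold, 66, 38 and 1) and Scd1-low (grey, 14, 18 and 6). Right, share of kept cells in percent for all members (black) and Scd1-high members (gold) with 95% Clopper-Pearson intervals, where Rux lies below CON and UV in both.

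Scd1-high and Scd1-low members also differed in sebocyte genes outside the rule. At 2000 UMIs per cell, Plin2, which coats lipid droplets, was detected in 90.9% of Scd1-high members of CON and 97.4% of UV, in 21.4% and 16.7% of Scd1-low members and in 7.37% and 7.27% of fibroblasts. For Plin2, other epithelial cells had 5.01% and 6.95%, and leukocytes, with 25.4% and 23.5%, lay above Scd1-low members. Krt79, a keratin of the gland's duct, was detected in 92.4% and 97.4% of Scd1-high, 21.4% and 5.56% of Scd1-low members and 4.59% and 2.14% of fibroblasts. Other epithelial cells had Krt79 in 11.0% and 9.47%, and leukocytes in 6.45% and 3.02%. Without thinning, Mc5r, the melanocortin receptor of sebocytes, had a UMI in 86.4% of Scd1-high members of CON and 71.1% of UV. It had one in 7.14% and 5.56% of Scd1-low members and, taken as a background, 1.74% and 2.74% of fibroblasts. Free RNA itself was not measured. The median depth was 41847 and 40462 UMIs in Scd1-high members, 38562 and 45438 in Scd1-low members and 7204.5 and 8447 in fibroblasts. Mitochondrial UMIs were a median of 6.76% (CON) and 7.35% (UV) in Scd1-high members against 2.95% and 3.04% in Scd1-low members, so a filter at 5% removes most of the former. The Scrublet doublet score was among the highest 1160 of kept cells for 23 Scd1-high members in CON, and 7 Scd1-high members in UV and 0 in Rux were likewise among the highest scores of their library.

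Scd1-low members had higher summed CPM of the defining genes of several other cell types than Scd1-high members, although not always more than the library as a whole. The melanocyte list (5 genes, led by Dct, an enzyme of pigment synthesis) summed to 10703, 350 and 6590 CPM in Scd1-low members of CON, UV and Rux, and to 22.3, 19.7 and 22.1 CPM in Scd1-high members. All kept cells had 1372, 417 and 263 CPM. The hair shaft and inner root sheath list (8 genes) summed to 521, 856 and 1319 CPM in Scd1-low and 30.8, 25.8 and 22.1 CPM in Scd1-high members, with 440, 1096 and 1083 CPM in all kept cells. The hair follicle stem cell list summed to 597, 240 and 464 CPM against 22.3, 10.5 and 0 CPM, with Lgr5 and Lhx2 at 0 in Scd1-high members of UV, and to 367, 449 and 735 CPM in all kept cells. Scd1-low members of UV thus lay below all kept cells for these 3 lists, and those of Rux for the stem cell list. The fibroblast list, led by Dcn in CON and UV, summed to 992, 1426 and 686 CPM against 234, 282 and 287 CPM, where all kept cells had 6911, 10895 and 14635 CPM. Scd1-high members held 2691640 of the 3400230 UMIs of members in CON and 1625021 of 2778970 in UV. Values over all members thus weigh Scd1-low cells more in UV than in CON. The part of these cells in differences over all members was not tested by itself. List medians are therefore given for all members and for Scd1-high members, while single genes are given for Scd1-high members unless stated.

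Other lists were mixed in Scd1-high members, and the suprabasal and adipocyte sums were higher there than in Scd1-low members (291, 112 and 68.3 CPM and 1.41, 5.2 and 7.19 CPM). Of 7 adipocyte genes, Adipoq, the defining gene of fat cells, was at 0 in all 3 libraries, and the summed 189, 129 and 486 CPM came almost wholly from Adig. Of 6 suprabasal keratinocyte genes, Sbsn gave 1197, 826 and 3138 of 1252, 844 and 3138 CPM. The leukocyte list (9 genes) summed to 16.7 CPM in CON and 92.9 CPM in UV, led by Cd74 with 5.9 and 53.5 CPM, against 386 and 427 CPM in all kept cells. Mural cell genes summed to 14.9 CPM in CON and 118 CPM in UV, against 168 and 303 CPM in all kept cells, and the basal keratinocyte genes to 1956 and 2468 CPM, led by Krt14. Endothelial genes summed to 25.6 and 11.1 CPM, Schwann cell genes to 1.86 and 2.46 CPM, muscle genes to 18.2 and 9.85 CPM and haemoglobin genes to 1.86 and 19.7 CPM.

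**Figure D2:**
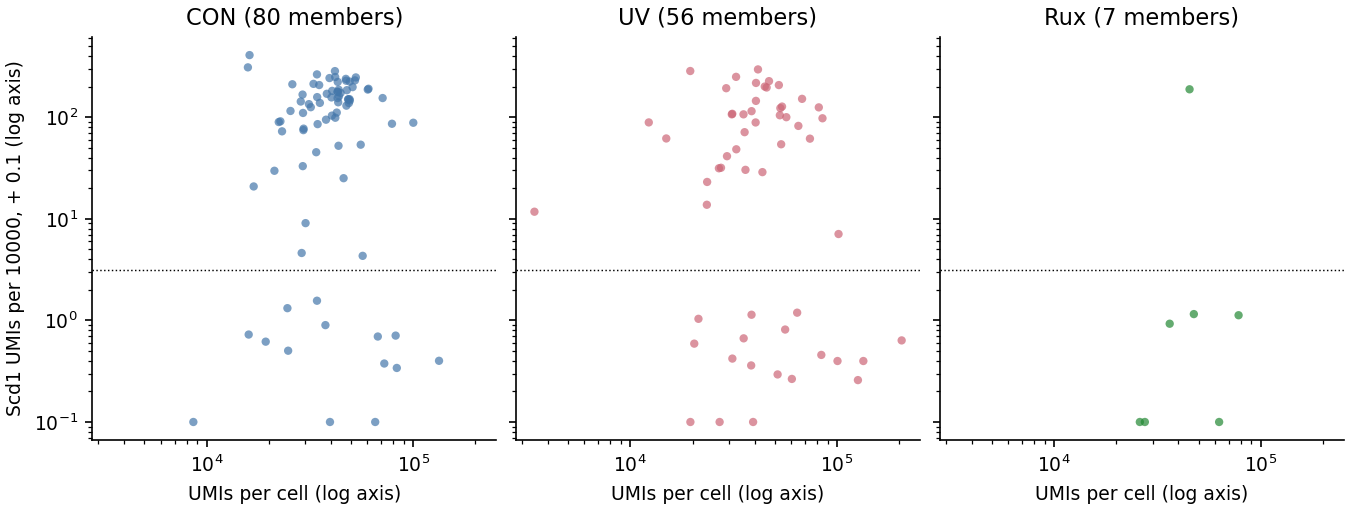
Scd1 UMIs per 10000 plus 0.1 against UMIs per cell for each member of CON (80), UV (56) and Rux (7), both on log axes, with a dotted line at the split of 3 per 10000. Points form an upper and a lower band in CON and UV, and 1 of the 7 Rux members lies in the upper band.

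The 7 Rux members were read cell by cell. A single cell, with 45251 UMIs, was Scd1-high and had all 5 rule genes, with 851 UMIs of Scd1 (188 per 10000), 113 of Cidea, 141 of Soat1, 179 of Mgst1, 9 of Awat2 and 29 of Dgat2l6. Among the others, a cell of 47464 UMIs held 778 UMIs of Dct and 457 of Ptgds, both abundant in pigment cells. A cell of 78132 UMIs held 87 UMIs of Krt71, a keratin of the inner root sheath, with 147 of Krt17 and 21 of the cycling gene Mki67. A cell of 62911 UMIs held 46 UMIs of Lgr5, a gene of follicle stem cells, with 156 of Krt17, and a cell of 36267 UMIs held 135 of Krt17. A cell of 27501 UMIs held 19 UMIs of Pecam1 and 48 of Fabp4, both found in endothelium, and a cell of 26006 UMIs held 27 of Dcn and 22 of Krt5. These 6 cells had 0 to 8 UMIs of Scd1. Every level stated for Rux therefore describes 1 sebocyte or a mixture of unlike cells.

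Over all kept cells the sebocyte genes gave a view that needs no member rule. Scd1 had 365 CPM (362 to 368) in CON, 239 CPM (236 to 241) in UV and 44.0 CPM (42.8 to 45.1) in Rux, and Cidea had 37.6, 24.2 and 2.67 CPM. The cell filter still applied and removed unlike parts of Scd1. Kept cells held 59567 of 61895 Scd1 UMIs in CON, 31394 of 34405 in UV and 5667 of 8263 in Rux. Mc5r had 2.84, 3.47 and 1.11 CPM, Awat2 2.10, 1.89 and 0.783 CPM, and Awat1, which like Awat2 encodes a wax synthase, 5.88, 2.75 and 0.473 CPM. These 5 genes were lowest in Rux, as was Soat1 with 57.4, 66.9 and 31.2 CPM, whereas Mgst1 was lowest in CON with 210, 270 and 251 CPM and Dgat2l6 had 0.515, 0.783 and 0.504 CPM, with overlapping intervals in CON and Rux. Members held 72.3% of the Cidea UMIs of kept cells in CON, 69.1% in UV and 33.1% in Rux. For Mgst1 they held only 36.9%, 15.5% and 0.665%, and 76.6% of CON fibroblasts had a Mgst1 UMI. The Mgst1 levels thus came mostly from other cells. Of the 65 Dgat2l6 UMIs in kept cells of Rux, 29 came from the Rux sebocyte. Outside the members, 55, 23 and 5 kept cells had at least 20 Scd1 UMIs per 10000 and no UMI of Ptprc, Pdgfra or Adipoq, with a median depth of 895, 2376 and 7705 UMIs.

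Levels of Scd1, Mgst1, Cidea and Soat1 in Scd1-high members differed between CON and UV by less than 2-fold. Scd1 had a lowest, median and highest value over cells of 4.22, 150 and 408 per 10000 in CON and 6.98, 102 and 295 in UV, and 188 in the Rux cell. The ranges overlapped, and the UV median was lower. Summed over cells, Scd1 reached 14665 CPM in CON against 11264 CPM in UV, and the log2 ratio (UV over CON, as in all ratios below) was −0.38 (−0.41 to −0.36). Mgst1, a microsomal glutathione transferase, had cell medians of 49.2 and 31.4 per 10000 and a log2 ratio of −0.50 (−0.55 to −0.46). Cidea had cell medians of 16.6 and 11.8 and a log2 ratio of −0.28 (−0.36 to −0.21). Soat1, which esterifies cholesterol, was higher in UV, with cell medians of 18.7 and 23.7 and a log2 ratio of 0.32 (0.26 to 0.38), and in all members it had a log2 ratio of −0.12, so its direction depended on which members were counted. Without the cells of highest Scrublet score its ratio in Scd1-high members was 0.0024.

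The wax synthase genes lie in the same region of chromosome X of GRCm38, Awat2 at chrX:100402221-100442717 on the minus strand, Dgat2l6 at chrX:100524838-100546144 and Awat1 at chrX:100572251-100578205 on the plus strand. Every member had to carry Awat2 or Dgat2l6, so the levels of this pair are a description only. Awat2, an acyl-CoA wax alcohol acyltransferase, had 146 UMIs (54.2 CPM) in Scd1-high members of CON and 114 (70.2 CPM) in UV, a log2 ratio of 0.37 (0.00 to 0.73). Dgat2l6, of the same enzyme family, had 44 and 13 UMIs (16.3 and 8.00 CPM), −0.99 (−2.05 to −0.11), and 84.6% of the UV UMIs came from 3 cells. Awat1 had 295 and 167 CPM, −0.82 (−1.03 to −0.62), with 50.6% of the UV UMIs in 3 cells. In the Rux sebocyte the levels were 199 CPM for Awat2, 641 CPM for Dgat2l6 and 1149 CPM for Awat1, each above the summed level of CON and UV. Single cells lay higher for Awat2 and Awat1, since a CON cell of 43114 UMIs had 15 and 76 UMIs. The Rux cell of 45251 UMIs had 9 and 52. For Dgat2l6 no CON or UV member reached the Rux level. These genes are low, and a gene family of close sequence can share reads.

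**Figure D3:**
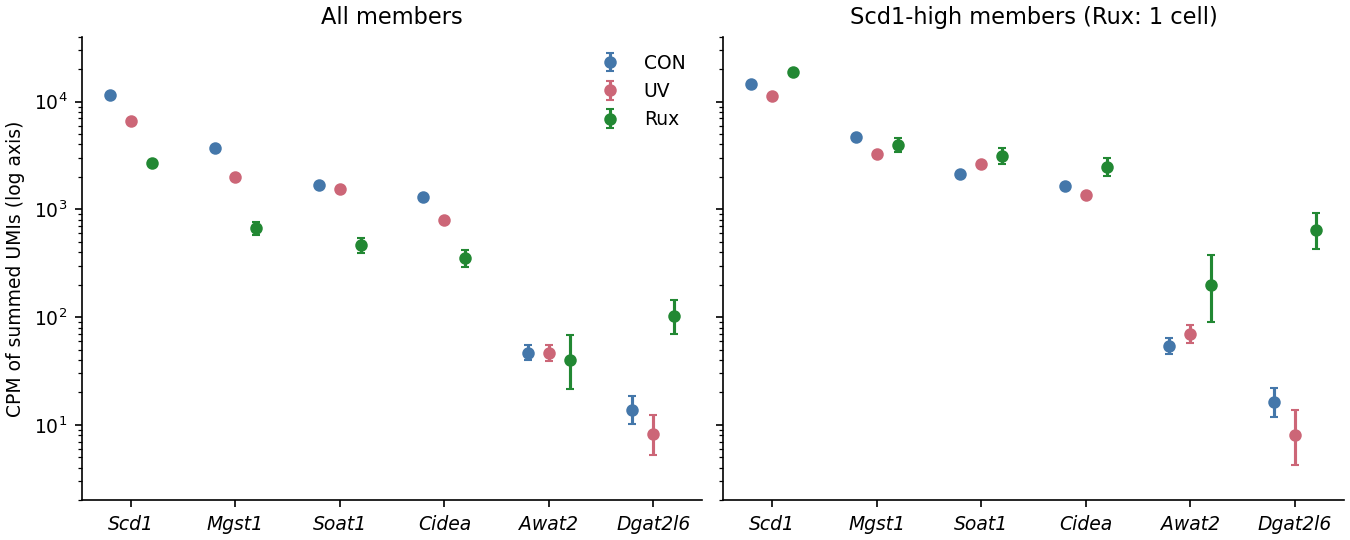
CPM of summed UMIs on a log axis for the marker and rule genes in all members (left) and Scd1-high members (right) of CON, UV and Rux, with 95% Poisson intervals that are smaller than the points where not seen. Scd1 is 14665 CPM in CON and 11264 CPM in UV on the right, where Rux is 1 cell.

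The members were next set beside other epithelial cells. The 15 genes with the largest excess in members, each taken at the lowest of its 3 libraries and among 1282 genes of at least 100 CPM, had log2 ratios of 5.48 to 8.00. Since members were chosen on measured genes, this is a description of them. Elovl3 and Elovl4, which elongate long-chain fatty acids, had ratios of at least 7.56 and 6.61, Fa2h, a fatty acid 2-hydroxylase, 7.49, Far2, which reduces fatty acids to wax alcohols, 7.14, and Acacb, an acetyl-CoA carboxylase, 5.81. Mgll, a monoacylglycerol lipase, had 5.48 and Rarres1, a retinoid-responsive gene, 7.20. Fa2h had 3374 CPM in Scd1-high members of CON and 2607 CPM in UV, against 10.8 and 8.45 CPM in other epithelial cells. Gm13178 led the 15 genes with 8.00, and Serpina3j, Serpina3b, Cidea, Tmem45b, Paqr7, Scd1 and Sdr16c6 completed them.

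The question that the UV library addresses is what repeated irradiation of skin does to its cells. Over all members, 166 of 3610 genes (4.6%) were at least 2-fold higher in UV than in CON and 91 (2.52%) at least 2-fold lower, counting genes of at least 50 CPM on average and 100 UMIs. In Scd1-high members these counts were 43 (1.32%) and 30 (0.922%) of 3253 genes. Of the 10 lowest genes of all members, 7 were pigment cell genes, namely Trpm1, Mlana, Pmel, Tyrp1, Ptgds, Dct and Tyr, with 364 to 3915 UMIs in CON members and 17 to 240 in UV members. In Scd1-high members the same 7 genes had 4 to 40 UMIs in CON and 2 to 15 in UV. Krt25, of the inner root sheath, had a log2 ratio of 3.78 in all members (41 and 467 UMIs) and 13 and 11 UMIs in Scd1-high members. Itga2, an integrin subunit, turned from 3.38 in all members to −1.89 (−3.08 to −0.98) in Scd1-high members.

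The gene with the lowest ratio in both sets was Defb8, a beta-defensin of the antimicrobial peptide family. It had 12143 UMIs in the 66 Scd1-high members of CON, 5 in the 38 of UV and 0 in the Rux sebocyte. That is 4511 CPM in CON and 3.08 CPM in UV, a log2 ratio of −10.38 (−12.14 to −9.29). Over cells of CON the lowest, median and highest values were 0, 6.48 and 345 per 10000, and in UV 36 of 38 cells had none. In CON 71.2% of Scd1-high members carried a UMI, 40.0% of the UMIs came from 3 cells, and the groups overlapped at 0. Of CON fibroblasts (median depth 7204.5 UMIs) 6.93% also had a Defb8 UMI, against 0.0240% of UV fibroblasts. Whether these UMIs were free RNA was not tested. The whole library of CON held 18656 Defb8 UMIs, that of UV 14 and that of Rux 3, and members held 68.5% of those in kept cells of CON. Whether cells outside the members expressed Defb8 was not tested. With 1 library per group, an effect of the treatment and a difference between the mice of the libraries cannot be told apart.

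Defb8 lies at chr8:19445769-19447606 on the minus strand of GRCm38, in a cluster of beta-defensin genes. Reads of near-identical defensins could have been split between genes, so its level is uncertain in that respect. The sequence before its start is shown because it had the lowest ratio of all genes counted, with those of Rarres1 and Hsd17b7, a pair of genes described next. The windows hold the 250 bases before each start (RefSeq, GRCm38.p6, minus strand, 5′ to 3′), at chr8:19447607-19447856 for Defb8, chr3:67515524-67515773 for Rarres1 and chr1:169969206-169969455 for Hsd17b7. Capitals mark AGGTCA, the hexamer to which nuclear receptors such as PPARγ bind.
Defb8: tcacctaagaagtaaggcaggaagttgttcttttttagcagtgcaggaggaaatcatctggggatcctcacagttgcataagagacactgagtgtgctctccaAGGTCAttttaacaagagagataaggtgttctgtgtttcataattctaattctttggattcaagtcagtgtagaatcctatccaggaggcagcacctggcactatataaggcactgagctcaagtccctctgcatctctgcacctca
Rarres1: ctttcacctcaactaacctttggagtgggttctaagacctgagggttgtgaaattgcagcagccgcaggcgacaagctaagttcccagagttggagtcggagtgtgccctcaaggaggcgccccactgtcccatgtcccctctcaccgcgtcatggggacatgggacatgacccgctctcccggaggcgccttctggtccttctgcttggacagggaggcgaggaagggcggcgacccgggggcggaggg
Hsd17b7: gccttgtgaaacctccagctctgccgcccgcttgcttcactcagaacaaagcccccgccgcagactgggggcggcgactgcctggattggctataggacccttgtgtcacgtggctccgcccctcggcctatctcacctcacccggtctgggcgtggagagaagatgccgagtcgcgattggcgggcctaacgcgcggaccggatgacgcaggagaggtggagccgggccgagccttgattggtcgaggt

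AGGTCA was searched on both strands and was found once before Defb8, starting 147 bases before the gene's start, and not before Rarres1, Hsd17b7, Msmo1, Awat2 or Dgat2l6. It occurs in 4607 of 32851 windows of this length (14.02%). The sterol regulatory element TCACNCCAC, also searched on both strands, was in none of these windows and in 346 of all windows (1.053%). A match is a description of the letters and does not show a bound site.

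Rarres1 came next among the sebocyte genes. It had cell values of 0, 19.5 and 151 per 10000 (lowest, median and highest) in Scd1-high members of CON and 0, 1.65 and 97.0 in UV. The CON cells reached higher and the groups overlapped. Summed over cells, CON had 3488 CPM, UV 1025 CPM and the Rux sebocyte 6453 CPM, with a log2 ratio of −1.77 (−1.84 to −1.69). In UV, 46.8% of its UMIs came from 3 cells. The ratio lay much lower among the Scd1-high cells with at most 5% mitochondrial UMIs (9 of CON and 5 of UV), where UV had 2 Rarres1 UMIs. The other genes among the 10 lowest in Scd1-high members, named after their values were seen, included the cytochrome P450 genes Cyp2j12 (157 and 38.8 CPM, −2.01) and Cyp17a1, a steroid hydroxylase (169 and 54.2 CPM, −1.64), the transcription factors Zfp608 (−2.47) and Zfp503 (−1.65), and C130079G13Rik (372 and 45.5 CPM, −3.02). Zfp503 changed direction among the Scd1-high cells with at most 5% mitochondrial UMIs (9 of CON and 5 of UV).

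**Figure D4:**
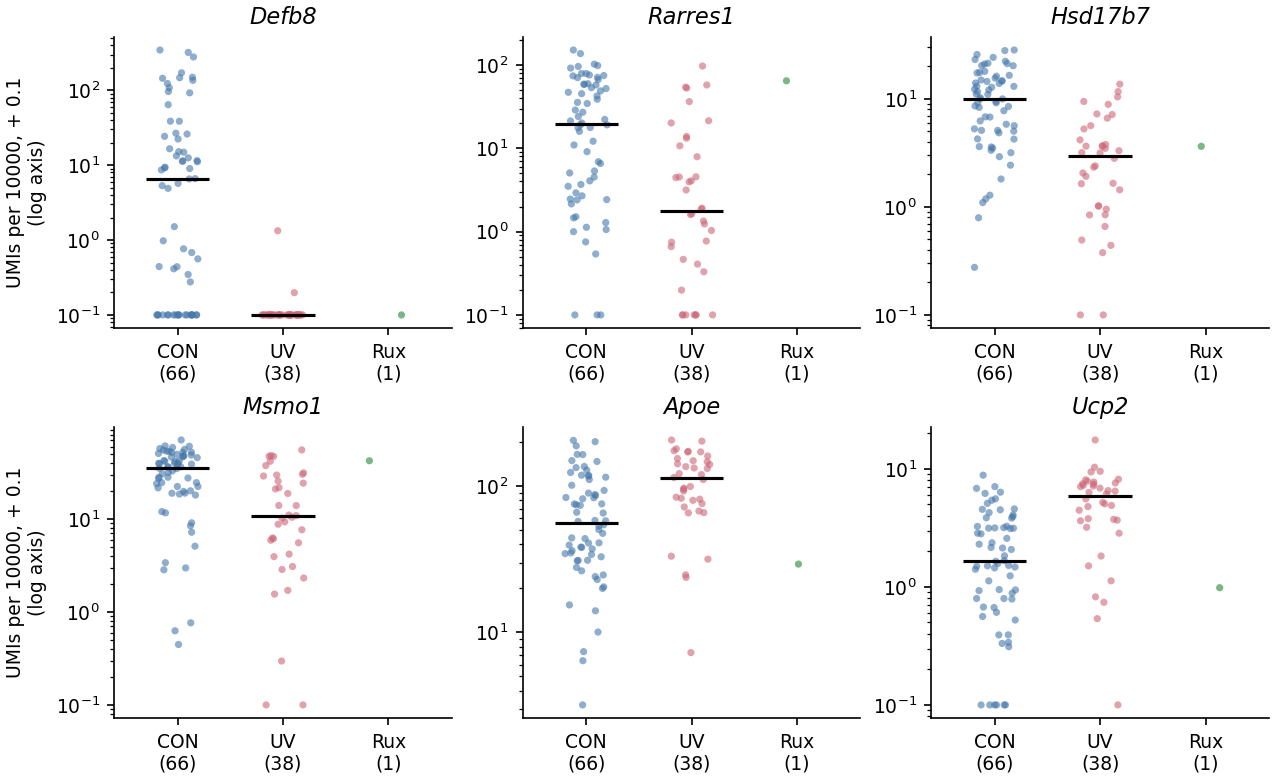
UMIs per 10000 plus 0.1 on a log axis in each Scd1-high member of CON (66), UV (38) and Rux (1) for the 6 genes named above the panels, with the median as a black bar in CON and UV. Defb8 is at 0 in nearly all UV cells, Rarres1, Hsd17b7 and Msmo1 have lower medians in UV (1.65, 2.89 and 10.5) and Apoe and Ucp2 higher ones (112 and 5.75).

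Most measured genes of cholesterol synthesis were lower in UV. Of 22 measured genes, that is genes with at least 20 CPM in all members on average over the 3 libraries, 21 were lower in all members (45.4% of all 6824 measured genes were) with a median log2 ratio of −0.75, and 20 were lower in Scd1-high members (50.8% of all measured genes) with a median of −0.36. The median over all measured genes was 0.06 in members and −0.01 in Scd1-high members. A gene can count as measured through Scd1-low cells and be low in Scd1-high members. This list and those below were chosen with earlier results of these data known, so their counts are a description. In Scd1-high members Hsd17b7, a sterol ketoreductase, reached 1175 CPM in CON against 389 CPM in UV, a log2 ratio of −1.59 (−1.72 to −1.47), with cell medians of 9.89 and 2.89 per 10000. Msmo1, a sterol methyl oxidase, had 3350 and 1744 CPM, −0.94 (−1.003 to −0.88), with cell medians of 35.5 and 10.5. Cyp51, the lanosterol demethylase, had 1593 and 966 CPM, −0.72 (−0.81 to −0.64). All 3 act on the sterol ring after lanosterol is made. Idi1, of the isoprenoid steps, was close to even with 2241 and 2215 CPM, −0.02 (−0.08 to 0.04).

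Fatty acid synthesis showed the same direction. Of 27 measured genes, 21 were lower in UV in all members (median −0.75) and 20 in Scd1-high members (median −0.43). Of all measured genes 45.4% and 50.8% were lower. None of the 27 was at least 2-fold lower in Scd1-high members (3.03% of all measured genes) and 3 were at least 2-fold higher (2.97%), each of them low. Elovl1, an elongase, had 8 UMIs in CON and 21 in UV, 2.07 (0.89 to 3.50), with 42.9% of the UV UMIs in 3 cells, Scd2, a desaturase, 21 and 41 UMIs, 1.68 (0.90 to 2.53), with 39.0%, and Acsl1, an acyl-CoA synthetase, 17 and 35 UMIs, 1.75 (0.90 to 2.70), with 40%. Fasn, the fatty acid synthase, had 1199 and 807 CPM in Scd1-high members of CON and UV, a log2 ratio of −0.57 (−0.67 to −0.48). Hsd17b12 and Hacd2, which act in chain elongation, had −0.59 (−0.65 to −0.53) and −0.50 (−0.55 to −0.44). Elovl5 had 861 and 492 CPM, −0.81 (−0.92 to −0.69). Elovl4, which makes very long chains, had 4920 and 3009 CPM, −0.71 (−0.76 to −0.66), with a UMI in 52 of 66 cells of CON and 22 of 38 of UV, cell medians of 4.78 and 0.238 per 10000 and 52.5% of the UV UMIs in 3 cells. Elovl6 was close to even, 6736 and 6495 CPM, −0.05 (−0.09 to −0.02), and Acaca, the acetyl-CoA carboxylase of the cytosol, and Slc25a1, the citrate carrier, were at 0.14 (−0.03 to 0.30) and 0.20 (0.10 to 0.29).

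Peroxisomal genes serve fatty acid oxidation and ether lipid synthesis. They were lower in 14 of 15 cases in Scd1-high members (50.8% of all measured genes were), with a median of −0.23. In all members 14 of 15 were lower (45.4% of all measured genes), with a median of −0.60. Phyh, which oxidises branched fatty acids, had 196 CPM in CON against 66.5 CPM in UV, −1.55 (−1.87 to −1.26), Pex11a, which divides peroxisomes, −0.83 (−1.07 to −0.59), and Acox3 −0.86 (−1.16 to −0.57). The 16 measured sebocyte markers outside the rule were all lower in UV over all members (median −0.82), where 45.4% of all measured genes were lower. Of them 5 were lower by at least 2-fold, where 2.84% of all measured genes were that much lower and 5.98% that much higher. In Scd1-high members 13 of 16 were lower (50.8% of all measured genes), with a median of −0.38. None was lower by 2-fold (3.03% of all measured genes that much lower, 2.97% that much higher). The exceptions were Apoc1 (0.29), Krt79 of the gland's duct (0.17) and Plin2, which coats lipid droplets (0.06, −0.01 to 0.13). Krt79 changed direction among cells with at most 5% mitochondrial UMIs, and also without the cells of highest Scrublet score.

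Ester formation and lipid storage differed between all members and Scd1-high members. Of 13 measured genes of wax and sterol ester formation, 7 were higher and 6 lower in Scd1-high members, with a median of 0.11, and over all members 8 were lower, with a median of −0.29. The list holds Awat2, Dgat2l6 and Soat1, which chose the members, so both its count and its median are a description. Dgat2, which makes triglycerides, had 213 and 145 CPM, −0.55 (−0.78 to −0.33), while Agpat2, an enzyme of the same route, had 48.3 and 92.3 CPM, 0.93 (0.59 to 1.28), with 43.3% of the UV UMIs in 3 cells. Far2 had 1335 and 1153 CPM, −0.21 (−0.29 to −0.13). Of 16 lipid droplet and transport genes, 7 were higher and 9 lower in Scd1-high members, with a median of −0.06, and over all members 14 were lower, with a median of −0.42. Fabp5, the fatty acid binding protein of sebocytes, had 21841 and 19267 CPM, −0.18 (−0.20 to −0.16), and Mgll 5636 and 3569 CPM, −0.66 (−0.70 to −0.62). Fabp4, a binding protein of fat cells and endothelium, had 21 and 166 UMIs, and 92.2% of the latter came from 3 cells.

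**Figure D5:**
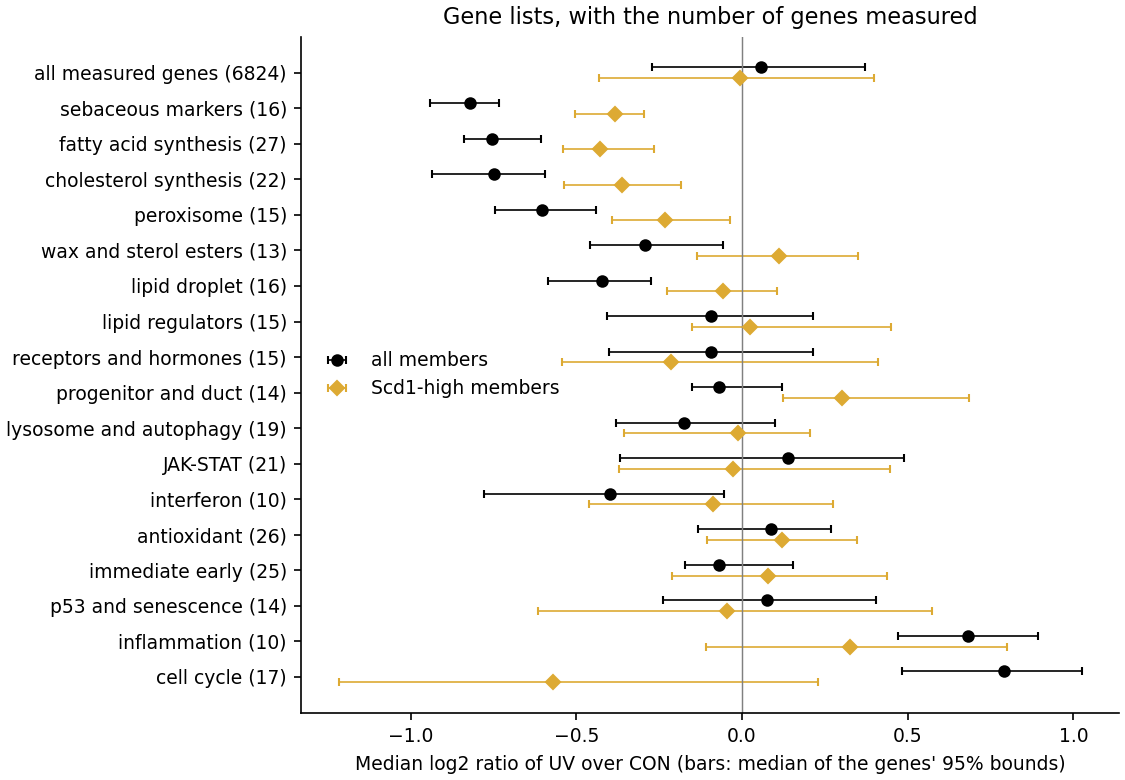
Median log2 ratio of UV over CON for each gene list, with the number of measured genes in parentheses, in all members (black) and Scd1-high members (gold), where bars span the medians of the genes' lower and upper 95% bounds. Fatty acid and cholesterol synthesis lie at −0.75 in all members and at −0.43 and −0.36 in Scd1-high members, all measured genes at 0.06 and −0.01.

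Regulators and receptors differed one by one. Among 15 measured regulators 8 were higher and 7 lower in Scd1-high members, with a median of 0.02, and 6 and 9 in all members, with a median of −0.09. Of 15 measured receptors and steroid enzymes 6 were higher and 9 lower in Scd1-high members (median −0.22), and 5 and 10 in all members (median −0.09). Pparg, which encodes PPARγ, had 163 CPM in CON against 88.6 CPM in UV, a log2 ratio of −0.88 (−1.16 to −0.61), with cell medians of 1.60 and 0.780 per 10000. Cebpb, a factor of fat cell differentiation, had 870 and 694 CPM, −0.33 (−0.43 to −0.22). Srebf1, which activates fatty acid synthesis genes, had 65.8 and 117 CPM, 0.83 (0.53 to 1.13), and Srebf2, which activates sterol genes, 169 and 202 CPM, 0.26 (0.05 to 0.47). Among receptors, Mc5r had 87.7 and 54.8 CPM, −0.67 (−1.05 to −0.32), and Srd5a1, which makes the active androgen, 149 and 105 CPM, −0.50 (−0.77 to −0.24). Egfr, the receptor for epidermal growth factor, had 177 and 227 CPM, 0.36 (0.16 to 0.56).

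Apoe, Ucp2 and Mif were among the genes higher in UV in Scd1-high members. Apoe, a carrier of lipids, had cell values of 3.098, 55.7 and 205 per 10000 in CON and 7.18, 112 and 206 in UV, 6454 and 10748 CPM, and a log2 ratio of 0.74 (0.71 to 0.77). Ucp2, a mitochondrial carrier, had cell medians of 1.56 and 5.75, 216 and 533 CPM and a log2 ratio of 1.30 (1.15 to 1.46). Mif, a cytokine, had cell medians of 1.46 and 4.86, 208 and 517 CPM and 1.32 (1.16 to 1.47). The ranges of CON and UV overlapped for each. Ftl1, the ferritin light chain, had 207 and 406 CPM, 0.97 (0.81 to 1.14). The 10 highest ratios, named after their values were seen, were those of Fabp4, Plet1, Gm16685, Tpm2, Krt15, Thbs1, Tspo, Crip1, Tns4 and Palld, at 1.60 to 3.68. Among the 9 and 5 Scd1-high cells with at most 5% mitochondrial UMIs the ratio was below 0 for Fabp4 (−0.073), Krt15 (−2.88), Crip1 (−0.92) and Thbs1 (−0.24). Genes of pericytes and smooth muscle summed to 14.9 CPM in Scd1-high members of CON and 118 CPM in those of UV, and their part in these values was not tested. For Fabp4, Gm16685, Krt15 and Crip1, 83.4% to 92.3% of the UV UMIs came from 3 cells. Tspo, a mitochondrial cholesterol carrier, had 38.3 and 138 CPM, 1.85 (1.51 to 2.21), with 33.3% in 3 cells, and Tns4, of focal adhesions, 62.0 and 192 CPM, 1.63 (1.35 to 1.91), with 22.8%.

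Several genes differed along Scd1 among the cells, and the number of cells per level of Scd1 differed between CON and UV. The 105 Scd1-high members were divided into 3 equal ranks of Scd1, with limits at 93.2 and 168 per 10000, which is a range and not a cell type. The lowest, middle and highest rank held 18, 23 and 25 cells of CON and 17, 12 and 9 of UV. Krt5, a keratin of dividing basal cells, had 285, 46.8 and 36.3 CPM over these ranks in CON and 371, 76.4 and 8.505 CPM in UV. In UV, 124 Krt5 UMIs of the lowest rank came from a single cell. Elovl4 had 895, 2079 and 10174 CPM in CON and 20.2, 535 and 12873 CPM in UV, so UV was lower in the low and middle rank and higher in the top rank. Soat1 was higher in UV in each rank, with 814, 2025 and 3105 CPM in CON and 1460, 3150 and 3986 CPM in UV.

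Within the ranks, Defb8, Rarres1, Hsd17b7 and Msmo1 were lower in UV each time. This did not hold for all genes with lower summed levels in UV. Awat1, Far2, Fa2h, Cidea and Fabp5 were lower in UV in the low and middle rank and higher in the top rank. In the top rank, CON and UV had 570 and 686 CPM of Awat1 and 1891 and 2404 CPM of Far2. Fa2h had 4879 and 5364 CPM there, and Mc5r was close to even (100 and 105 CPM). How far the unlike cell numbers per rank shaped the summed ratios was not tested. Defb8 had 2290, 1972 and 8283 CPM in CON and 1.55, 0 and 11.3 CPM in UV. Rarres1 had 893, 2260 and 6331 CPM in CON and 55.9, 567 and 3612 CPM in UV, and Hsd17b7 had 511, 1059 and 1724 CPM against 126, 470 and 726 CPM. Msmo1 had 1289, 3382 and 4704 CPM against 441, 1737 and 4136 CPM, so its difference was small in the top rank. Apoe had 9549, 7292 and 3624 CPM in CON and 13632, 10974 and 5077 CPM in UV, and Ucp2 407, 219 and 85.0 CPM against 710, 556 and 170 CPM, both higher in UV in each rank and both lower where Scd1 was higher.

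Ruxolitinib blocks JAK1 and JAK2, so the JAK-STAT list was read in CON and UV first. Of 21 measured genes 10 were higher and 11 lower in UV in Scd1-high members, with a median of −0.03, and 12 and 9 in all members, with a median of 0.14. Jak2 had 88.1 and 126 CPM in Scd1-high members, a log2 ratio of 0.51 (0.23 to 0.79). Over the ranks of Scd1 it had 179, 71.2 and 42.0 CPM in CON and 185, 116 and 34.0 CPM in UV, and its ratio was −0.15 among cells with at most 5% mitochondrial UMIs. Jak1 had 74.7 and 81.2 CPM, 0.12 (−0.21 to 0.45). Osmr, the oncostatin M receptor, had 89.5 and 143 CPM, 0.67 (0.41 to 0.94). The feedback inhibitor Socs2 had 74.7 and 33.2 CPM, −1.16 (−1.63 to −0.73), while Socs3 had 39.0 and 33.2 CPM, −0.22 (−0.73 to 0.26), and Irf1, a target of interferon, 50.9 and 33.8 CPM, −0.58 (−1.07 to −0.13). Of 10 measured interferon genes 4 were higher and 6 lower in Scd1-high members, with a median of −0.09, and 1 and 9 in all members, with a median of −0.40 (−0.78 to −0.06 as the medians of the genes' bounds).

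Inflammatory genes were sparse in sebocytes. Of 10 measured genes 6 were higher and 4 lower in UV in Scd1-high members, with a median of 0.33, and 9 and 1 in all members, with a median of 0.68. The median of all members was −0.32 when cells needed 500 genes and no more than 5% mitochondrial UMIs, which left 21 and 22 cells, and that of Scd1-high members was −0.17 among the 9 and 5 cells within the mitochondrial limit. Nfkbiz, an inhibitor-like cofactor of NF-κB, had 284 and 521 CPM, 0.88 (0.73 to 1.02), with cell medians of 2.56 and 5.61 per 10000. In the top Scd1 rank Nfkbiz was instead slightly lower in UV, at 224 against 242 CPM, while it was higher in the low and middle rank. Cxcl1, which attracts neutrophils, had 92.5 and 180 CPM, 0.96 (0.71 to 1.21). Cxcl2 and Ccl2 had ratios of 2.30 and 1.33, but 83.3% and 72.8% of their UV UMIs came from 3 cells, and Ccl2 was at −1.92 among the 9 and 5 cells. Leukocyte genes summed to 92.9 CPM in UV against 16.7 CPM in CON in the same cells, and their part in these values was not tested. Antioxidant genes (26 measured, 14 higher, median 0.12), immediate early genes (25 measured, 15 higher, median 0.08), p53 and senescence genes (14 measured, 6 higher, median −0.05) and lysosome and autophagy genes (19 measured, 8 higher, median −0.01) lay close to the median of all measured genes, and over all members their medians were 0.09, −0.07, 0.07 and −0.18. Of the progenitor and duct genes 11 of 14 were higher (median 0.30, and −0.07 in all members), but the median was −0.023 without the 3 UV cells of most UMIs and −0.54 among cells with at most 5% mitochondrial UMIs, with Krt14 at 1794 and 2094 CPM, 0.22 (0.16 to 0.29). Cell cycle genes had a median of 0.79 in all members and of −0.57 in Scd1-high members, where Mki67 had 26.7 and 17.8 CPM. In CON, 31 Mki67 UMIs came from the Scd1-high cell of lowest Scd1 (4.22 per 10000) and 14 from another cell. The direction of Mki67 thus rests on few cells, and the list median without them was not taken. The antimicrobial list, to which Defb8 does not belong, had 4 measured genes, and most of them were low in Scd1-high members. Their median was 1.01 there and −0.66 in all members. Defb6 had 41.2 and 86.8 CPM with 95.7% of the UV UMIs in 3 cells. Slpi, a protease inhibitor, had 8 and 13 UMIs, Rnase4 24 and 28 UMIs, and Lcn2, which binds bacterial siderophores, 92.5 and 68.9 CPM.

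The study's results name a stress and metabolic group (Hmox1, Gpx3, Ucp2, Nr4a2, Per1 and Ptgds) and a matrix group (Dcn, Gsn and Nup210l) for several lineages, the former also for the sebaceous one. Ptgds is taken here for the symbol printed as Plgds. In Scd1-high members Ucp2 had the most UMIs of the 9 genes, 581 in CON and 866 in UV. Hmox1, haem oxygenase, had 10 UMIs in CON, 32 in UV and 2 in the Rux cell. Gpx3 had 84, 42 and 0 UMIs, Nr4a2 50, 11 and 0, Per1, of the circadian clock, 100, 78 and 5, and Ptgds 7, 3 and 0. The Ptgds UMIs of members (1212, 68 and 457) thus came from Scd1-low cells. Dcn, a matrix proteoglycan of fibroblasts, had 275 and 180 UMIs (102 and 111 CPM, 0.12, −0.16 to 0.39), with 68.3% of the UV UMIs in 3 cells and 111 of them in a single cell, Gsn 81.7 and 159 CPM, 0.96 (0.70 to 1.23), with 58.3% of the UV UMIs in 3 cells, and Nup210l 23 and 36 UMIs. In the Rux sebocyte Ucp2 had 4 UMIs (88.4 CPM, 24.1 to 226), where the top Scd1 rank, to which this cell belonged, was at 85.0 CPM (CON) and 170 CPM (UV).

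The Rux library addresses what JAK inhibition adds to irradiation. Over all members 286 of 3749 genes (7.63%) were at least 2-fold higher in Rux than in UV and 241 (6.43%) at least 2-fold lower, and against CON the counts were 549 (14.8%) and 415 (11.2%) of 3715. The 10 highest ratios included the pigment cell genes Mlana, Trpm1, Oca2, Ptgds, Tyrp1, Pmel, Dct and Tyr, at 4.55 to 6.77, and Fndc1 (4.13). Of these 9 genes the Rux sebocyte had 1 UMI, of Dct. The 10 lowest ratios were those of Acoxl (−6.33), Fgfbp1, Slc16a1, Idi1 (−3.50), Slc25a1 (−3.45), Clmp, Acsl4, Defb6, Prlr and Gk, at −3.18 or lower, with 3 to 37 UMIs in Rux members apart from the 1 of Acoxl. The Rux sum held 1 sebocyte among 7 cells.

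Against sums of the top Scd1 rank of CON and UV, the Rux sebocyte was higher in some lipid genes and lower in others. A single cell has no spread, and some single cells of that rank lay further out. A UV cell of 19501 UMIs had 747 of Elovl4 and 3 of Hsd17b7, and a CON cell of 15848 UMIs had 748 of Elovl4. The Rux sebocyte's Scd1 of 188 per 10000 placed it in the highest of the 3 ranks. It had 1407 UMIs of Elovl4 (31093 CPM, 29490 to 32761), 319 of Fa2h (7050 CPM) and 292 of Rarres1 (6453 CPM, 5734 to 7237). Msmo1 had 191 UMIs (4221 CPM, 3644 to 4864), a value between those of the top Scd1 rank of UV (4136 CPM) and CON (4704 CPM), while Hsd17b7 had 16 UMIs (354 CPM, 202 to 574), below the top rank of both. Idi1 had 23 UMIs (508 CPM, 322 to 763) and Acoxl, of the acyl-CoA oxidase family, 1 UMI (22.1 CPM), where Scd1-high members of UV had 2215 and 638 CPM. Defb8 had 0 UMIs, which allows up to 81.5 CPM. Apoe had 132 UMIs (2917 CPM), lower than in the top rank of CON (3624 CPM) and UV (5077 CPM).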

How the data were processed

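Single-cell RNA-seq was analysed in 3 libraries of mouse dorsal skin, 1 per group. The authors deposited filtered matrices of UMI counts per gene and cell, not normalized. The submitters' processing notes name Cell Ranger 6.1.2, whereas the matrix headers name 7.0.0, with Seurat 5.3.0 and the build mm10. Counts were summed over member cells per library and divided by the summed UMIs (CPM). Log2 ratios used a pseudocount of 0.5 UMI. Intervals were exact at 95%, Clopper-Pearson for shares, Poisson for sums and conditional binomial for ratios, and cover counting error only. With 1 library per group no test was run.

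Members, gene lists and the rules were chosen with earlier results of these data known, and the split by Scd1 after the values were seen. Cells were neither clustered nor removed as doublets, and Scrublet (scanpy 1.11.5) scores served in an alternative. The genes named were the markers and rule genes, genes of a described list, the 10 highest and 10 lowest ratios in members among genes averaging 50 CPM or more with 100 UMIs or more, the 15 highest over other epithelial cells and the genes the study names, and others are said to be named after their values were seen. A list gene counted as measured from 20 CPM upwards in all members, averaged over the 3 libraries, for every set of cells. Coordinates are of GENCODE M21, which held 32235 of 32285 gene identifiers. Python 3.11.15 with numpy 2.4.6, scipy 1.17.1, pandas 2.3.3 and matplotlib 3.10.9 was used. The ratio code was checked on simulated counts for UV over CON members (3623 genes, 200 changed 2-fold), where the sign was right for 100% of changed genes and the true value lay within 95.83% of intervals. Some genes are not reported here.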

Additional observations from a re-analysis of the deposited data

How the results depend on the processing

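No paired analysis was possible because each group has 1 library, and no replicate could be left out. The share of member cells in CON (0.665%) was 0.206% with a stricter cell filter (500 genes, 5% mitochondrial), 1.13% with at least 2 of the 5 rule genes, 0.872% with no condition on Ptprc and Pdgfra, 0.104% in cells thinned to 2000 UMIs, 0.496% without the cells of highest Scrublet score and 1.84% of members and other epithelial cells. The share in UV (0.494%) was 0.221%, 1.09%, 0.662% and 0.0989% under the first 4 of these, 0.353% with at least 4 of the 5 rule genes, 3.14% of epithelial cells and 0.335% for Scd1-high members. The share in Rux (0.0690%) was 0.483% with 2 rule genes, 0.207% without the condition, 0.0108% thinned, 0.489% of epithelial cells, and 0.00986% both with at least 4 rule genes and for Scd1-high members. The Scd1-high alternatives were chosen after seeing the data.

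Median-of-ratios scaling moved the median log2 ratio of all measured genes in members from 0.06 to −0.08. It gave medians of −0.96 for sebocyte markers (−0.82 as reported) and −0.89 for fatty acid synthesis (−0.75). With at least 4 rule genes (64 and 40 cells), markers, fatty acid and cholesterol synthesis (−0.75) had medians of −0.62, −0.58 and −0.59, with the stricter cell filter (21 and 22 cells) −2.02, −1.35 and −1.42, without high Scrublet scores (54 and 49 cells) −1.12, −0.95 and −0.98, and in Scd1-high members −0.38, −0.43 and −0.36. Markers had −0.68 with equal weight per cell, and with at least 100 CPM markers had −0.72 and fatty acid synthesis −0.85. All of these stayed below 0.

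The 166 genes higher in UV became 271 without high Scrublet scores, 43 in Scd1-high members and 1528 with 10 UMIs as the only minimum. The 91 lower genes became 150 with median-of-ratios scaling, 283 with the stricter filter, 193, 30 and 736 under the same alternatives as above. For Rux over UV, 286 higher genes became 173 with median-of-ratios scaling, 108 with the stricter filter and 2032 with 10 UMIs, and 241 lower genes became 564 with 4 rule genes and 1362 with 10 UMIs.

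The following directions reversed, and the cause was not tested. In Scd1-high members, against all members, the median was 1.01 for the antimicrobial list (−0.66), −0.03 for JAK-STAT (0.14), 0.30 for progenitor and duct (−0.07), 0.02 for lipid regulators (−0.09), 0.08 for immediate early genes (−0.07), −0.05 for p53 and senescence (0.07), 0.11 for wax and sterol ester genes and −0.57 for the cell cycle, and the ratio was −1.89 for Itga2, 0.37 for Mlana, 1.78 for Pmel, 0.32 for Soat1, 0.73 for Trpm1 and 0.076 for Tyrp1. The inflammation median was −0.32 with the stricter filter. With at least 4 rule genes the ratio was 0.84 for Mlana, 1.83 for Pmel, 0.24 for Ptgds, 0.077 for Soat1, 0.79 for Trpm1 and 0.19 for Tyrp1, and Soat1 had 0.027 with equal weight per cell. Within Scd1-high members the progenitor and duct median was −0.023 without the 3 UV cells of most UMIs and −0.54 with at most 5% mitochondrial UMIs (9 and 5 cells), where ratios were −1.92 for Ccl2, −0.92 for Crip1, −0.073 for Fabp4, −0.15 for Jak2, −2.88 for Krt15, −0.055 for Krt79, −0.24 for Thbs1 and 0.77 for Zfp503. Krt79 had −0.089 without high Scrublet scores. Over the alternatives within Scd1-high members, Defb8 ranged from −10.45 to −5.75, Rarres1 from −6.95 to −1.56, Hsd17b7 from −1.98 to −1.47, Msmo1 from −1.50 to −0.84, Apoe from 0.66 to 1.29, Ucp2 from 1.16 to 1.98 and Mif from 1.31 to 1.83. The −5.75 of Defb8 came from the 9 and 5 cells with at most 5% mitochondrial UMIs. UV had no Defb8 UMI there, so the pseudocount set this value and it is a bound.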

Other observations

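Other cells of the libraries were read for the same genes. In other epithelial cells the log2 ratio of UV over CON was −6.41 for Defb8, −2.07 for Rarres1, −0.22 for Hsd17b7, −0.28 for Msmo1, 0.29 for Apoe and 0.23 for Ucp2. In cells outside the members with at least 20 Scd1 UMIs per 10000 (55 in CON, 23 in UV), it was −7.23 for Defb8, −1.42 for Rarres1, −1.16 for Hsd17b7, −0.90 for Msmo1, −0.07 for Apoe and 0.29 for Ucp2. The cholesterol synthesis list had a median of −0.88 in these cells, which come from the same libraries. Their depth had a lowest, median and highest value of 500, 895 and 108731 UMIs in CON and 525, 2376 and 77924 in UV. In shallow cells few Scd1 UMIs met the limit, and in the sums deep cells weighed most. Whether the shallow cells held free RNA was not tested. The cell mix of this set differed too. Its fibroblast list (5 measured genes) summed to 453 CPM in CON and 1455 CPM in UV with a median of 1.48, and the 1 measured Schwann cell gene had 3.64 and 285 CPM. Their part in the difference was not tested. Paqr7, a progestin and adipoQ receptor family member among the 15 genes above other epithelial cells, had 1449 CPM in Scd1-high members of CON and 638 CPM in UV, −1.18 (−1.28 to −1.08).

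The limits are those of 1 library per group. The treatment and the mice behind a library cannot be told apart, and Rux rests on 1 sebocyte. Intervals cover counting error only, and the spread between mice was not measured. Median depth was similar in Scd1-high members of CON and UV (41847 and 40462 UMIs).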
